A study of Mus musculus with 6 samples.

Results

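The genes of the proteasome, the protease that degrades ubiquitin-tagged proteins, were compared in spinal cord endothelial cells (ECs) of mice with and without an inducible, EC-directed deletion of the TDP-43 gene *Tardbp*. Members were the protein-coding genes whose symbol is Psma, Psmb, Psmc, Psmd or Psme followed by a number, with the immunoproteasome genes *Psmb8*, *Psmb9* and *Psmb10* kept apart. This rule uses no measured value and gave 43 of the 56748 genes in the table, and 42 of them were among the 13107 genes that passed the filter on low counts. They comprise the 31 subunits of the 26S proteasome that carry these names, 5 activators, 3 assembly chaperones, 2 tissue-specific variants of core subunits and 2 genes that match by name only, *Psmc3ip* (a cofactor of meiotic recombination) and *Psme3ip1* (a partner of the activator PA28γ).

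Control mice carried the floxed *Tardbp* gene, which encodes TDP-43, without Cre (genotype Tardbpflox), and TDP-43iΔEC mice also carried Cdh5(PAC)-CreERT2, in which the *Cdh5* promoter drives a tamoxifen-dependent Cre in ECs. Both groups received tamoxifen (1 mg/mL) from P5 to P7, and ECs were sorted from the spinal cord at P16, with 3 mice per group and 1 RNA-Seq library per mouse. Libraries were made with SMARTseq2, which copies polyadenylated RNA and amplifies it by PCR. Molecular identifiers are not described, and the RNA input and PCR cycles varied between samples and are not given per library. The level of the targeted gene was read first. Normalized counts of *Tardbp* (deposited counts divided by DESeq2's size factors) were 1973, 2282 and 2069 in control mice 1 to 3 and 982, 599.9 and 433 in TDP-43iΔEC mice 1 to 3. All 3 TDP-43iΔEC values were below all control values, with a log2 fold change of -1.62 ± 0.41 (SE) that did not pass the threshold over all genes (limma with voom, Benjamini-Hochberg adjusted p = 0.287, 0.0221 with DESeq2, and 0.0221 to 0.564 over all alternatives tried). A gene count also takes in *Tardbp* transcripts that lack the deleted exon.

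Library totals ran from 25704871 to 47270654 counts, at which 3 counts correspond to 0.0635 to 0.117 CPM (counts scaled to the library total), a floor that covers counting error only. Control mouse 2 and TDP-43iΔEC mouse 1 stood apart from the other libraries in a multidimensional scaling, and TDP-43iΔEC mouse 1 alone had counts of Y-linked genes and 0 counts of *Xist*. Summed EC markers (*Pecam1*, *Cldn5*, *Kdr*, *Flt1* and *Vwf*) were at 8948 to 12720.5 CPM in control and 8997 to 11421 CPM in TDP-43iΔEC mice, and 2 of the 5 genes were lower without overlap. Summed erythroid markers were at 6336 to 9759 CPM in control against 2197 to 2909 CPM in TDP-43iΔEC mice, and all 5 erythroid genes were lower without overlap. Astrocyte markers (211 to 249 against 139 to 193 CPM) and neuronal markers (5.0 to 11.1 against 0.815 to 2.16 CPM) also did not overlap between the groups, with 1 of 5 genes in each list lower without overlap and 1 neuronal gene higher. Over all tested genes, 7.1% were lower and 7.93% higher without overlap. Oligodendrocyte markers ranged from 288 to 546 CPM in control and from 15.7 to 497 CPM in TDP-43iΔEC mice, and macrophage markers were at or below 8.21 CPM in every library, with *Adgre1* at 0. The part of these differences in the values below was not tested. In bulk RNA of sorted cells, fewer cells of a type and less RNA per cell cannot be told apart.

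The 26S proteasome is a 20S core capped by a 19S regulatory particle. The core is a barrel whose outer rings of alpha subunits gate the entry and whose inner rings of beta subunits hold the proteolytic sites, while the 19S particle recognizes ubiquitin chains, removes them and unfolds the substrate with a ring of ATPases. Other caps, such as PA28, open the core without ubiquitin recognition, and the transcription factor NRF1 (gene *Nfe2l1*) is known to raise the subunit genes together when proteasome activity is short.

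Sequences are given for 2 sets of members. The first is a pair whose reads are hard to tell apart. *Psme2* (PA28β; GRCm39, chromosome 14 from 55824895 to 55829173, minus strand, 11 exons; coordinates are on this build unless another is named) and the single-exon gene *Psme2b* (chromosome 11 from 48836181 to 48837017, minus strand) have coding sequences of 717 bp that differ at 5 positions (99.3% identity). Bases 424 to 543 of both coding sequences, read from GRCm39, hold 3 of the differences, shown in capitals.
Psme2: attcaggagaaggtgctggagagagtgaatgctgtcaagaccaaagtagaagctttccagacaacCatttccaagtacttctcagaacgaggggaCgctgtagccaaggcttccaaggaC
Psme2b: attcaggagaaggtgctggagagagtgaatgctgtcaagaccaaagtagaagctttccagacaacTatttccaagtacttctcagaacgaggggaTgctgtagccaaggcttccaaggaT
Between capitals the stretches are identical, so a read that covers no capital letter fits both genes, and 69.0% of the 51-base words of *Psme2* also occur in *Psme2b*.

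The second set is promoters, shown because subunit genes are described as controlled together. RefSeq windows from 250 bases before to 50 bases after the start site (build GRCm38.p6) were found for 36 members. They were searched on both strands for TGACNNNGC, the letters of the antioxidant response element to which NRF1 and NRF2 bind, and for CCAAT, the box to which NF-Y binds. TGACNNNGC was present in 6 members (16.7%), *Psmb5*, *Psmb6*, *Psmc6*, *Psmd12*, *Psmd9* and *Psme4*, against 14.0% of 27025 genes. CCAAT was present in 15 members (41.7%) against 41.1% of the same genes, and no member held both. No window was found for *Psma8*, *Psmb1*, *Psmb2*, *Psmc3*, *Psmd3*, *Psmd7* and the catalytic gene *Psmb7*, which were therefore not searched. The windows of the catalytic genes *Psmb5* (chr14:54617946-54618245 on the minus strand) and *Psmb6* (chr11:70525107-70525406 on the plus strand) hold the first motif, and that of *Psmd4* (chr3:95042565-95042864 on the minus strand), the member with the lowest p, holds CCAAT or its reverse complement 3 times, with the motif letters in capitals.
Psmb5: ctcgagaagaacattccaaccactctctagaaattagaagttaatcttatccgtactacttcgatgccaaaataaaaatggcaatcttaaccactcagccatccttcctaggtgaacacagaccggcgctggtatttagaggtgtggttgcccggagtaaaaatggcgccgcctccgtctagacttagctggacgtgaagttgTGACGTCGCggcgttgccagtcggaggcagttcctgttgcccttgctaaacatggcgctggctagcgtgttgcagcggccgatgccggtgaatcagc
Psmb6: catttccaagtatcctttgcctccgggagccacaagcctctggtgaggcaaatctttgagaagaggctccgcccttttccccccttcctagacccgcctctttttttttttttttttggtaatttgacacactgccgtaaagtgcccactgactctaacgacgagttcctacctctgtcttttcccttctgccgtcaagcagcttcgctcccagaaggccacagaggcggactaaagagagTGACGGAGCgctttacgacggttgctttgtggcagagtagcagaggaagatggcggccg
Psmd4: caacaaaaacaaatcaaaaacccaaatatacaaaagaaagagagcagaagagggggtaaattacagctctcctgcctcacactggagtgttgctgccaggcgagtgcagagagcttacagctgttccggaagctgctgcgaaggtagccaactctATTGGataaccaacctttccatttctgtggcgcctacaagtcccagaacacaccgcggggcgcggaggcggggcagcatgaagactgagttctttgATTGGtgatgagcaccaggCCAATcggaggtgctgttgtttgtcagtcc
A match of these letters is a description of the window and not evidence of binding.

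*Psmd4*, which encodes a ubiquitin receptor, was lower in every TDP-43iΔEC mouse than in every control mouse, and the activator gene *Psme2*, the core gene *Psma3*, the lid gene *Psmd13* and the ATPase gene *Psmc2* were higher in every TDP-43iΔEC mouse, but no member passed the threshold in limma. Of the 42 tested members, 0 had an adjusted p under 0.05 in limma, where 0.137% of all tested genes did (0.0305% higher and 0.107% lower in TDP-43iΔEC mice), and the lowest was 0.315 for *Psmd4*. edgeR's quasi-likelihood test also called 0 members (lowest adjusted p = 0.373), as it did 0.0% of all tested genes, with 4 at an unadjusted p under 0.05 (6.47% of all tested genes), and DESeq2 called 2, *Psmd4* (adjusted p = 0.0397, with 0.0397 to 0.582 over all alternatives) and *Psme2* (adjusted p = 0.0438, with 0.0438 to 0.651), where it called 1.88% of all tested genes and 6 members had an unadjusted p under 0.05 (8.49% of all tested genes). At an unadjusted limma p under 0.05, which 9.27% of all tested genes reached, there were 4 members on the higher side (*Psme2*, *Psma3*, *Psmd13* and *Psmc2*; 9.52% of the members against 4.26% of all tested genes) and 1 on the lower side (*Psmd4*; 2.38% against 5.0%). The groups did not overlap for 8 members that were higher in TDP-43iΔEC mice (the same 4 with *Psmc1*, *Psmd11*, *Psmd10* and *Psme2b*; against 7.93% of all tested genes) and for 1 that was lower (2.38%, against 7.1%).

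The members' log2 fold changes ran from -1.07 (*Psmd4*) to 1.22 (*Psme3*), with a median of 0.21 beside -0.02 over all tested genes, and 29 of the 42 were positive (69.0% against 49.3%). For 30 of the 42, the 95% interval lay within a 2-fold change in either direction, as it did for 14.5% of all tested genes. The median SE was 0.23 for the members and 0.71 over all tested genes. The 81 tested ribosomal protein genes, another large set of abundant transcripts, had a median log2 fold change of -0.35 with 6 positive and 75 negative values. For 54 of the 81, the interval also lay within a 2-fold change, so narrow intervals were not particular to the members. Of these genes, 0 passed the threshold (lowest limma adjusted p = 0.316). At an unadjusted limma p under 0.05 there were 13, all on the lower side (16.0% against 5.0% of all tested genes).

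**Figure D1:**
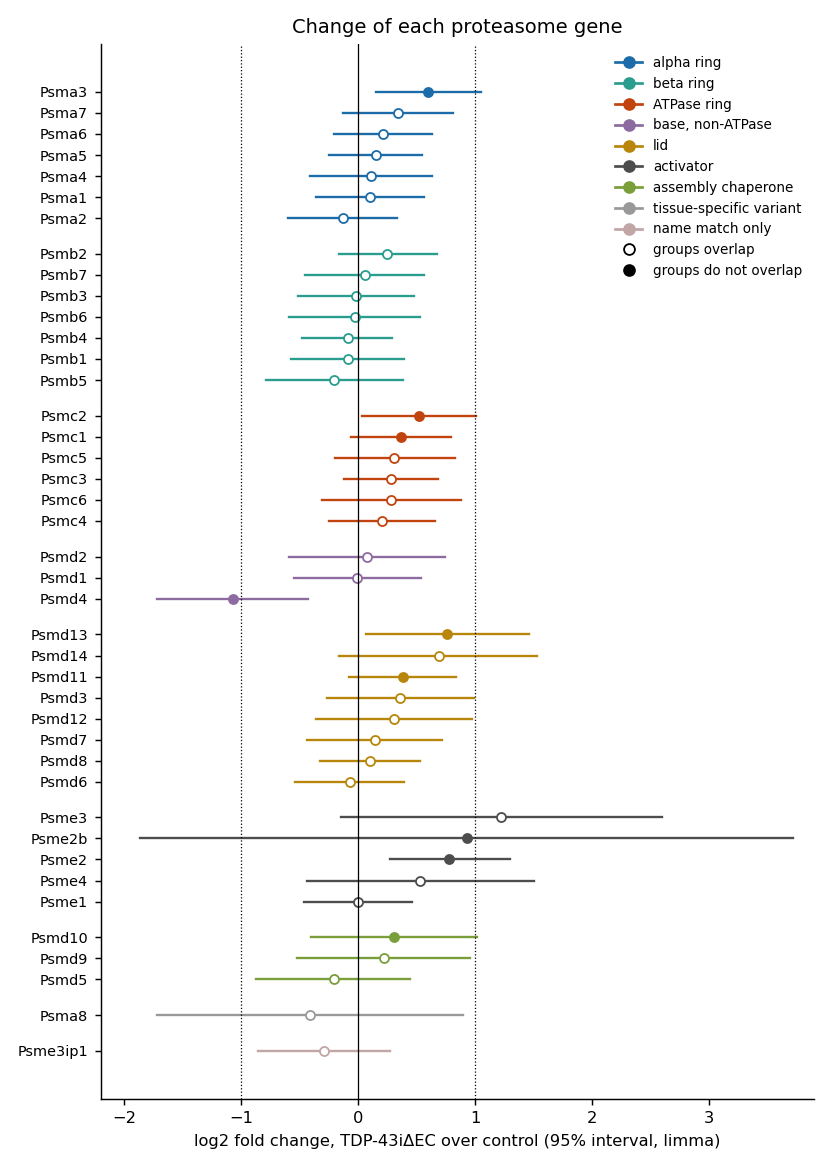
Log2 fold change of TDP-43iΔEC over control mice for 41 tested members (horizontal axis, limma with voom) with 95% intervals, grouped by the role of the subunit, 3 mice per group; *Psmc3ip*, whose standard error is 3.22, is left out. Filled points mark genes whose groups do not overlap in normalized counts, and dotted lines mark a 2-fold change. Most intervals cross 0 inside the dotted lines, and that of *Psmd4*, from -1.72 to -0.43, lies on the lower side.

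Levels were compared between genes as normalized counts per kb of coding sequence. The counts cover whole genes with their untranslated regions, so the length of these regions also enters this measure, and its part was not tested. By this measure, subunits that sit in the same particle differed widely. In control mice the highest was *Psma6*, an alpha ring subunit, at 21423 ± 4365 (SD, n = 3), followed by *Psmb2* at 17095.5 ± 1283 and *Psma1* at 16894 ± 4505, differences within the spread between mice. In the 20S core the lowest level was that of *Psmb5* (5814 ± 674), the subunit with chymotrypsin-like activity. The 19S subunits ran from 7714 ± 319.8 for the ATPase gene *Psmc3* to 2110.0 ± 631 for the lid gene *Psmd3*. The lowest tested members were *Psme2b* (118 ± 49.6) and *Psmc3ip* (73.1 ± 74.1), and *Psmb11*, the thymus-specific core subunit, had 0 counts in every library. Copies of a gene elsewhere in the genome can take or give reads. More than 60% of the 51-base words of the coding sequence of *Psma3* (85.6%), *Psma5* (78.5%), *Psmb3* (69.7%) and *Psmb5* (66.3%) occur in another annotated gene. The leading copies had few counts, with 106 to 189 normalized counts for that of *Psma3*. These are estimated counts, and how shared reads were divided between a gene and its copy was not tested.

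**Figure D2:**
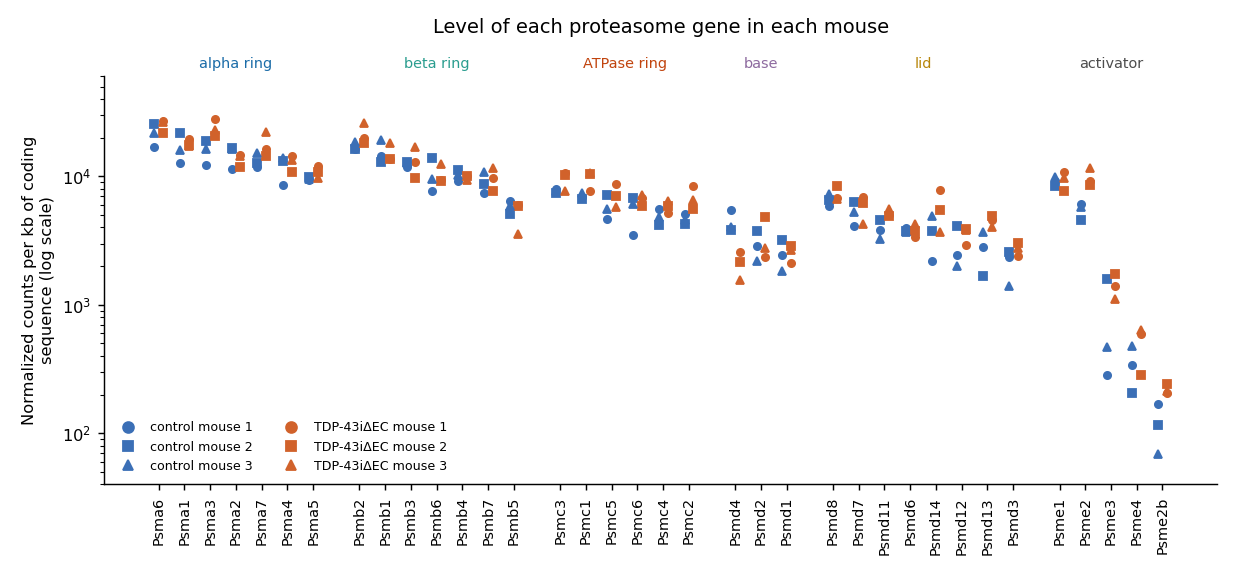
Normalized counts per kb of coding sequence (vertical axis, log scale) of the 26S subunits and activators in each of the 6 mice, ordered within each role by the control mean; marker shape gives the mouse number and color the group. Core subunits lie above most 19S subunits, and the activators *Psme3*, *Psme4* and *Psme2b* lie lowest.

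Within the 20S core, the alpha ring genes had log2 fold changes from -0.13 (*Psma2*) to 0.60 (*Psma3*), 6 of 7 of them positive, with a median of 0.15. *Psma3* (chromosome 12 from 71021279 to 71043849, plus strand) stood out. Its normalized counts were 9338, 14376 and 12561.5 in control mice 1 to 3 and 21507, 15915 and 17653.5 in TDP-43iΔEC mice 1 to 3. Every TDP-43iΔEC value exceeded every control value, although control mouse 2 and TDP-43iΔEC mouse 2 lay close together, and the log2 fold change was 0.60 ± 0.20 (SE), with a limma adjusted p of 0.434 (95% interval 0.15 to 1.05). *Psma7* was at 8736, 9402 and 11361 in control and 12108, 10697 and 16537 in TDP-43iΔEC mice, which overlap, and *Psma6*, the most abundant, at 12455, 18878 and 16098 in control and 19927, 15972 and 19487 in TDP-43iΔEC mice, where TDP-43iΔEC mouse 2 lay below control mouse 2. *Psma2* was at 7978, 11763 and 11374 in control and 10257, 8281 and 10185 in TDP-43iΔEC mice, a range within that of the control mice.

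The beta ring genes had log2 fold changes from -0.21 (*Psmb5*) to 0.25 (*Psmb2*), with a median of -0.03 and all 7 intervals within a 2-fold change. The catalytic subunits are *Psmb6* (caspase-like), *Psmb7* (trypsin-like) and *Psmb5* (chymotrypsin-like). Normalized counts of *Psmb5* (chromosome 14 from 54850776 to 54855481, minus strand) were 5096, 4037 and 4681 in control mice 1 to 3 and 4701, 4693 and 2804 in TDP-43iΔEC mice 1 to 3. The low value of TDP-43iΔEC mouse 3 was the only one outside the control range, and the log2 fold change was -0.21 ± 0.26 (SE) with a limma adjusted p of 0.814. *Psmb6* was at 5502, 9864 and 6812 in control and 6691, 6564 and 8902 in TDP-43iΔEC mice, with a log2 fold change of -0.03 ± 0.25 (SE) (95% interval -0.59 to 0.53). *Psmb7* was at 6195, 7264 and 8968 in control and 8083, 6423 and 9594.5 in TDP-43iΔEC mice, with a log2 fold change of 0.06 ± 0.22 (SE) (95% interval -0.45 to 0.56). For both genes, only TDP-43iΔEC mouse 3 of *Psmb7* lay outside the control range. A gene on the other strand or nearby can share reads with *Psmb7*, since 31.4% of its coding sequence overlaps a transcript of *Nek6*. *Psmb2* was at 9880.3, 9844 and 11201 in control and 12094.5, 10879 and 15618.5 in TDP-43iΔEC mice, with overlapping groups.

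The 6 ATPase genes of the 19S base, whose products form the ring that unfolds substrates, all had positive log2 fold changes, from 0.20 (*Psmc4*) to 0.52 (*Psmc2*), with a median of 0.30 and 0 past the threshold. Summed over the 6 genes, normalized counts were 43271.5, 46006 and 46048 in control mice 1 to 3 and 60080.3, 57465 and 56373.5 in TDP-43iΔEC mice 1 to 3. All TDP-43iΔEC sums exceeded all control sums, and the control sums lay closer together than those of any other group of subunits. *Psmc2* (chromosome 5 from 21989254 to 22008796, plus strand) had 6638, 5553 and 5988 in control mice 1 to 3 and 10911, 7190.0 and 8483 in TDP-43iΔEC mice 1 to 3, with a log2 fold change of 0.52 ± 0.22 (SE) and a limma adjusted p of 0.516. *Psmc1* had 9165, 8845 and 9771.5 in control and 10127, 13766 and 14093 in TDP-43iΔEC mice, also without overlap, with a log2 fold change of 0.37 ± 0.19 (SE) and an adjusted p of 0.572 in limma. With the TMM factors of the limma fit, control mouse 3 and TDP-43iΔEC mouse 1 lay at about the same level of *Psmc1*. For *Psmc4* the values were 6991, 5245 and 6099 in control and 6487, 7389 and 8090.3 in TDP-43iΔEC mice, and the groups overlapped.

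The other 3 genes of the base were *Psmd1* and *Psmd2*, the large scaffold subunits, and *Psmd4*, which encodes the ubiquitin receptor RPN10. *Psmd4* (chromosome 3 from 94937765 to 94949925, minus strand, 10 exons) had normalized counts of 6142, 4282 and 4531 in control mice 1 to 3 and 2905, 2409 and 1762.5 in TDP-43iΔEC mice 1 to 3. The highest TDP-43iΔEC value lay below the lowest control value. Means were 4985 ± 1009.8 in control and 2359 ± 573 in TDP-43iΔEC mice (SD, n = 3), the log2 fold change was -1.07 ± 0.29 (SE) with a 95% interval of -1.72 to -0.43, and the limma adjusted p was 0.315. Without 1 mouse at a time the log2 fold change stayed between -1.28 and -0.90. In the GENCODE M39 annotation, 22.9% of the coding sequence of *Psmd4* overlaps other gene models, with which reads can be shared, while the counts were made with the earlier release M30. *Psmd2* had 7792, 10185 and 5995 in control and 6465, 13098 and 7569 in TDP-43iΔEC mice, and *Psmd1* had a log2 fold change of -0.01 ± 0.24 (SE). Both sets of values overlapped.

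**Figure D3:**
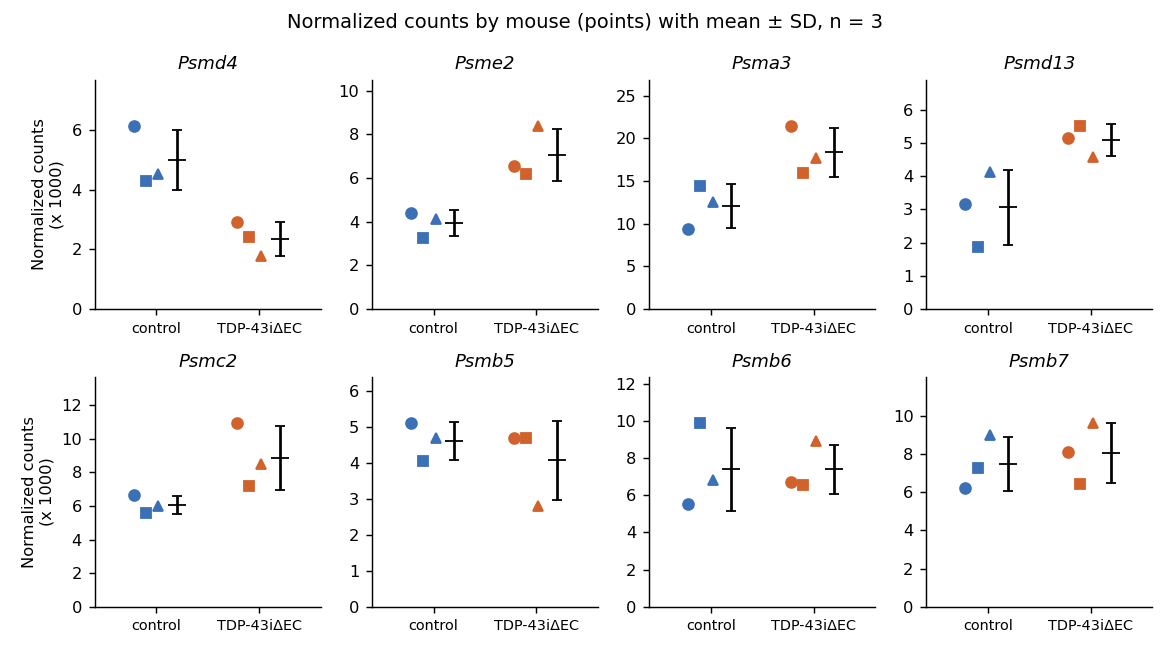
Normalized counts divided by 1000 (vertical axes, each from 0) of the 5 members with the lowest p and of the 3 catalytic subunits, 1 point per mouse with the mouse number as marker shape, and mean ± SD of 3 mice beside the points. *Psmd4* lies lower and *Psme2*, *Psma3*, *Psmd13* and *Psmc2* lie higher in TDP-43iΔEC mice without overlap, while *Psmb5*, *Psmb6* and *Psmb7* overlap.

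The 8 lid genes had a median log2 fold change of 0.33, 7 of them positive, from -0.07 (*Psmd6*) to 0.76 (*Psmd13*). The lid removes ubiquitin chains through the deubiquitinase encoded by *Psmd14*, and the other subunits are mostly structural. *Psmd13* (chromosome 7 from 140461854 to 140478560, plus strand) had 3180.3, 1879 and 4139 in control mice 1 to 3 and 5163.5, 5526 and 4581 in TDP-43iΔEC mice 1 to 3. The groups did not overlap, with the lowest value in control mouse 2, and the log2 fold change was 0.76 ± 0.31 (SE) with a limma adjusted p of 0.511. Of its coding sequence, 25.8% overlaps a transcript of *Cox8b*. *Psmd11* had 4842, 5802 and 4084 in control and 6300.1, 6232 and 7115 in TDP-43iΔEC mice, without overlap, at a log2 fold change of 0.38 ± 0.20 (SE). *Psmd14* had 2032, 3504.5 and 4606 in control and 7312, 5081.5 and 3426 in TDP-43iΔEC mice, where TDP-43iΔEC mouse 3 lay among the controls, at a log2 fold change of 0.69 ± 0.37 (SE). *Psmd6* had 4645, 4388 and 4289 in control and 3943, 4381.5 and 4928.5 in TDP-43iΔEC mice, with a log2 fold change of -0.07 ± 0.20 (SE) and overlapping groups. Over the whole 19S particle, summed normalized counts were 96183, 108029.8 and 96779 in control mice 1 to 3 and 119838, 127372 and 114288 in TDP-43iΔEC mice 1 to 3, without overlap, and over the 20S core they were 113823, 146165 and 143344 in control mice 1 to 3 and 156278, 133308 and 162539 in TDP-43iΔEC mice 1 to 3, with overlap.

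The activators cap the core in place of the 19S particle. *Psme1* and *Psme2* encode PA28α and PA28β, which form 1 ring together in the cytoplasm, *Psme3* encodes the nuclear PA28γ, and *Psme4* encodes PA200. *Psme2* had 4401, 3262 and 4132 in control mice 1 to 3 and 6566, 6198 and 8404 in TDP-43iΔEC mice 1 to 3. The TDP-43iΔEC values were all above the control values, with means of 3932 ± 595 in control and 7056 ± 1182 in TDP-43iΔEC mice (SD, n = 3), a log2 fold change of 0.78 ± 0.23 (SE), and a limma adjusted p of 0.36. Its partner *Psme1* (chromosome 14 from 55815190 to 55822034, plus strand) lies near it on chromosome 14 and had 6912, 6329.8 and 7373 in control mice 1 to 3 and 8096, 5728 and 7232 in TDP-43iΔEC mice 1 to 3. These values overlapped, and the log2 fold change was 0.00 ± 0.20 (SE) with a 95% interval of -0.46 to 0.46. *Psme3* had 217, 1213 and 359 in control and 1069, 1327 and 843 in TDP-43iΔEC mice. Here control mouse 2 lay above 2 of the 3 TDP-43iΔEC mice and the other control mice lay far below, and the log2 fold change of 1.22 ± 0.61 (SE) had a 95% interval of -0.15 to 2.60. It was 1.88 without control mouse 2, 0.69 without control mouse 1, 0.84 in edgeR and 0.86 in DESeq2. *Psme4* had a log2 fold change of 0.53 ± 0.43 (SE) with overlapping groups, and *Psme2b*, at 121, 83.7 and 49.5 in control and 146, 174 and 152 in TDP-43iΔEC mice, one of 0.93 ± 1.23 (SE) without overlap.

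The assembly chaperones *Psmd5*, *Psmd9* and *Psmd10*, which help to build the base and leave the finished particle, had log2 fold changes of -0.21, 0.22 and 0.31. *Psmd10*, on the X chromosome, had 1219, 1169.6 and 1294 in control and 1341, 1649 and 1897 in TDP-43iΔEC mice. The groups did not overlap, with the lowest TDP-43iΔEC value in mouse 1, the library with Y-linked counts, and the limma adjusted p was 0.76. With TMM factors in place of DESeq2's size factors, TDP-43iΔEC mouse 1 and control mouse 3 lay at about the same level of *Psmd10*. *Psmd5* had 1815, 2544 and 1969.6 in control and 1778, 2215 and 1578 in TDP-43iΔEC mice, with overlap. *Psma8*, known as a testis variant of an alpha subunit, was measurable in all 6 libraries at 494, 1770.5 and 726 in control and 758, 544 and 632 in TDP-43iΔEC mice, and control mouse 2 was the highest. *Psmc3ip* had 0 counts in control mouse 2 and in TDP-43iΔEC mouse 1 and at most 214 normalized counts elsewhere, and *Psme3ip1* had 2384, 2866 and 2975 in control and 2254, 2127.5 and 2533 in TDP-43iΔEC mice, with overlap.

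Ratios within a library do not depend on scaling between libraries. They were chosen after the values above were seen, 7 were computed, and with 3 mice against 3 the 2-sided exact permutation test cannot give less than p = 0.1. Neither this p nor its adjustment over the 7 ratios accounts for that choice. The ratio of *Psme2* to *Psme1* counts was 0.637, 0.515 and 0.56 in control and 0.811, 1.08 and 1.16 in TDP-43iΔEC mice. It was higher in all 3 TDP-43iΔEC mice (exact p = 0.1, 0.233 after Benjamini-Hochberg adjustment over the 7 ratios), and adding the reads of *Psme2b* to *Psme2* left the means at 0.583 ± 0.0643 and 1.04 ± 0.187 (SD, n = 3). The ratio of *Psmd4* to the summed counts of the other 19S genes was 0.0682, 0.0413 and 0.0491 in control and 0.0248, 0.0193 and 0.0157 in TDP-43iΔEC mice, again without overlap (exact p = 0.1, adjusted 0.233). The ratio of 19S to 20S counts was 0.845, 0.739 and 0.675 in control and 0.767, 0.955 and 0.703 in TDP-43iΔEC mice, with overlapping groups (exact p = 0.6).

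The immunoproteasome genes encode catalytic subunits that replace the constitutive ones, and they were compared with the subunits they replace. The ratio of *Psmb9* to *Psmb6* was 0.186, 0.0698 and 0.151 in control and 0.056, 0.0867 and 0.0249 in TDP-43iΔEC mice, where TDP-43iΔEC mouse 2 lay above control mouse 2 (exact p = 0.2). *Psmb8* to *Psmb5* was 0.203, 0.546 and 0.141 in control and 0.35, 0.434 and 0.0891 in TDP-43iΔEC mice (exact p = 1.0), a wide spread in both groups. For *Psmb10* to *Psmb7* it was 0.322, 0.237 and 0.184 in control and 0.171, 0.303 and 0.114 in TDP-43iΔEC mice (exact p = 0.4).

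**Figure D4:**
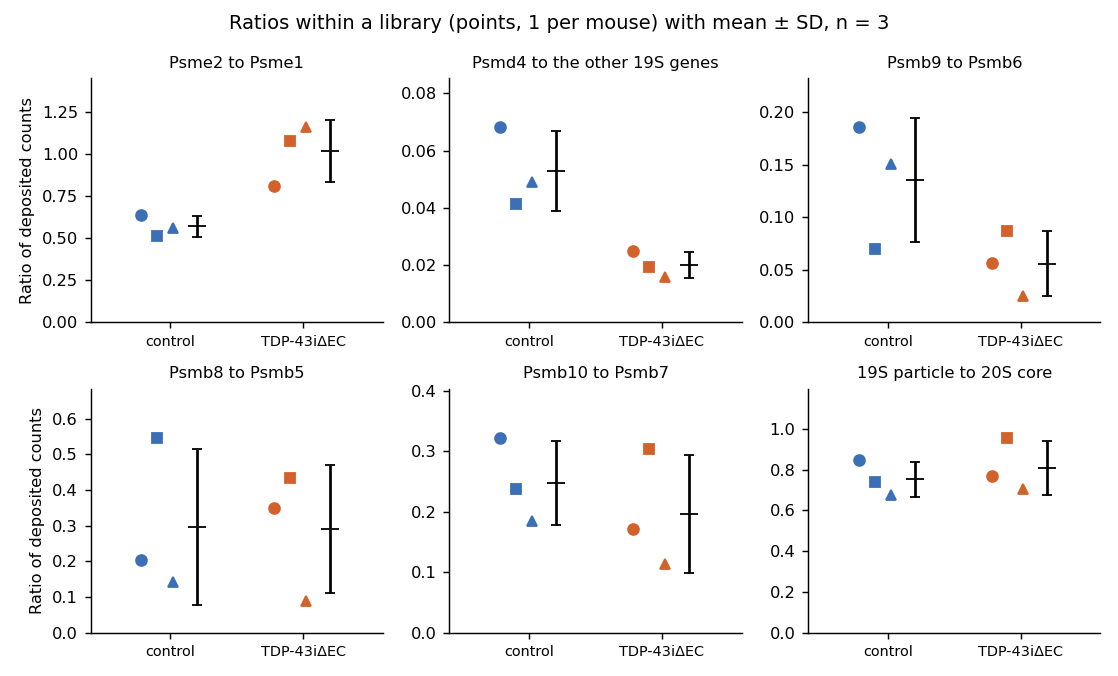
Ratios of deposited counts within each library (vertical axes, each from 0), 1 point per mouse with the mouse number as marker shape, and mean ± SD of 3 mice beside the points. The ratio of *Psme2* to *Psme1* and that of *Psmd4* to the other 19S genes separate the groups, and the other 4 ratios overlap.

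Of 37 pathway genes outside the naming rule, 0 passed the threshold in limma (0.137% of all tested genes), 2 had an unadjusted p under 0.05, both on the higher side (*Ngly1* and *Nfyc*, 5.41% against 4.26% of all tested genes), and the median log2 fold change was -0.09. edgeR called 0 (0.0% of all tested genes), with 1 at an unadjusted p under 0.05 (6.47% of all tested genes), and DESeq2 called 0 (1.88%), with 2 (8.49%). Without overlap, 3 pathway genes were higher in TDP-43iΔEC mice (*Ngly1*, *Nfyc* and *Rad23b*), 8.11% against 7.93% of all tested genes. Another 3 were lower (*Psmb9*, *Psmg2* and *Psmf1*), 8.11% against 7.1%. Both shares were near those of all tested genes. *Psmb9* had 1024, 688 and 1026 in control mice 1 to 3 and 375, 569 and 221 in TDP-43iΔEC mice 1 to 3. All 3 TDP-43iΔEC values were below the control values, with a log2 fold change of -1.30 ± 0.58 (SE) and a limma adjusted p of 0.541, while *Psmb8* (1036, 2205 and 658 in control and 1646, 2034.5 and 249.8 in TDP-43iΔEC mice) and *Psmb10* (1994, 1722 and 1647 in control and 1383, 1949 and 1089.9 in TDP-43iΔEC mice) overlapped.

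The core maturation factor gene *Pomp* had 16127, 18935 and 24189.7 in control and 15189.5, 11053 and 23079 in TDP-43iΔEC mice, a log2 fold change of -0.37 ± 0.26 (SE) with overlap, and the 6 genes of assembly and inhibition had a median of -0.38, with 2 of them lower without overlap (7.1% of all tested genes were), *Psmg2* (-0.40) and the inhibitor gene *Psmf1* (-0.83). The remaining subunits whose names do not start with Psm were close to 0, with log2 fold changes of 0.09 ± 0.30 (SE) for the ubiquitin receptor *Adrm1* and -0.12 ± 0.26 (SE) for the small lid subunit *Sem1*. The 8 delivery factors, which include the segregase *Vcp*, ran from -0.36 to 0.58.

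Among 7 genes of transcriptional control, *Nfe2l1* had 4001, 2151.5 and 3037.5 in control and 3376, 2779.9 and 2144 in TDP-43iΔEC mice, with overlap and a log2 fold change of -0.12 ± 0.32 (SE). *Ngly1*, the deglycosylase that processes NRF1, had 1173, 203 and 1184 in control and 2792.5, 2112 and 1264 in TDP-43iΔEC mice, and the NF-Y subunit *Nfyc* had 783, 124 and 677 in control and 1079, 1577 and 1227.5 in TDP-43iΔEC mice. Both were higher without overlap but had their lowest value in control mouse 2, with log2 fold changes of 1.60 ± 0.66 (SE) and 1.56 ± 0.66 (SE) and limma adjusted p of 0.513 and 0.522. Without control mouse 2 the log2 fold changes were 0.75 and 0.72, and without TDP-43iΔEC mouse 1 as well they were 0.43 and 0.89. The polyubiquitin gene *Ubb* had 181204, 188181.5 and 209703 in control and 189756, 160446 and 193116 in TDP-43iΔEC mice, a log2 fold change of -0.13 ± 0.10 (SE) with overlap.

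The small positive median of the members depended on 1 library and on the scaling. Per mouse, over the 41 members with counts in every library, the median log2 value relative to the control mean was -0.08, 0.08 and 0.03 in the control mice 1 to 3 and 0.23, 0.15 and 0.31 in the TDP-43iΔEC mice 1 to 3, without overlap. Control mouse 1, with 13 of the 41 members above the control mean, was the lowest of the 6. Without it, the median log2 fold change over the 42 tested members was 0.06 beside 0.00 for all tested genes. The difference between the members' median and that of all tested genes, 0.22 with all mice, was 0.38 without control mouse 2, 0.13 without TDP-43iΔEC mouse 1 and 0.12 without TDP-43iΔEC mouse 3. With scaling by library size only, the median over all tested genes moved to 0.18 and that of the members to 0.40, and with scaling to the EC markers they moved to 0.23 and 0.45, a difference of 0.22 in each case, as with TMM scaling. Hemoglobin genes took 0.631% to 0.97% of the counts in control and 0.219% to 0.291% in TDP-43iΔEC mice, and an 18S ribosomal RNA gene 14.8% to 18.5% and 8.04% to 13.6%. Leaving out hemoglobin, mitochondrial and ribosomal RNA genes gave 0.24 for the members and 0.02 for all tested genes. Without control mouse 2 and TDP-43iΔEC mouse 1 together, the values were 0.24 and -0.09.

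**Figure D5:**
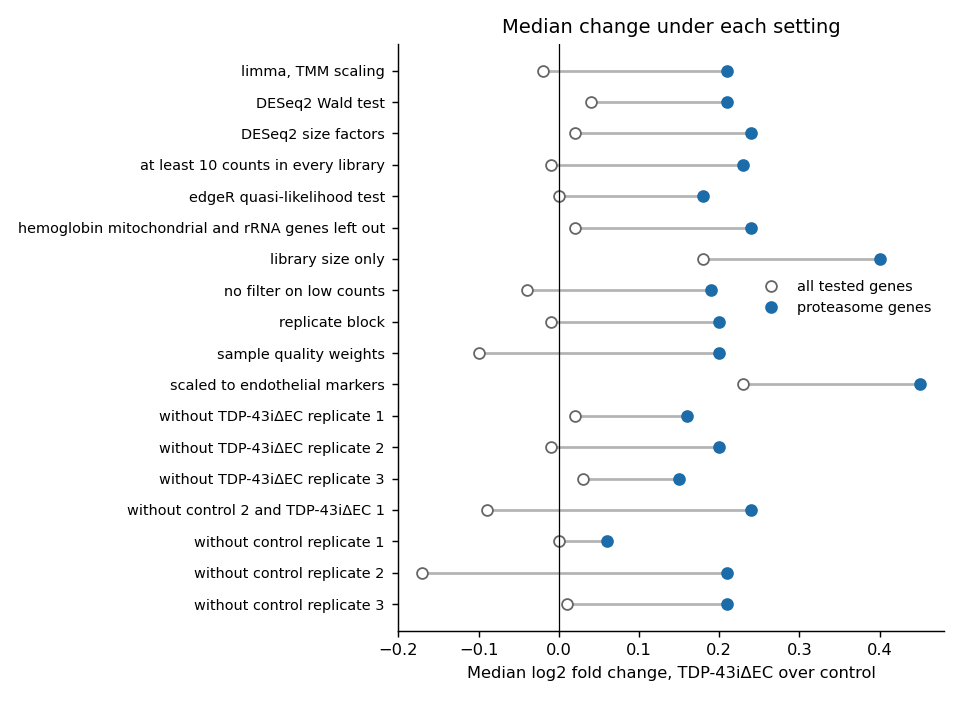
Median log2 fold change of TDP-43iΔEC over control mice (horizontal axis) for the tested proteasome members and for all tested genes under each setting of the analysis (vertical axis). The members lie above all tested genes in every setting, by 0.38 without control mouse 2 and by 0.06 without control mouse 1.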

How the data were processed

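ECs were sorted from the spinal cords of 6 mice and sequenced, and the authors aligned the reads (STAR 2.7.8a, GRCm39, GENCODE M30) and ran RSEM 1.3.0 for estimated counts per gene. These estimated counts were deposited as whole numbers, neither scaled nor filtered. Groups came from the labels. The members and all gene lists were chosen with earlier results of these data known.

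All genes were fitted with limma 3.58.1 (voom) in R 4.3.3, as in the study's methods, with TMM factors and the filterByExpr defaults of edgeR 4.0.16, no covariate, Benjamini-Hochberg adjustment over 13107 genes and a threshold of 0.05. Normalized counts were obtained with size factors from DESeq2 1.42.0. Standard errors and p values measure the spread between 3 mice per group. Procedures were tested on simulated counts. Gene models and coding lengths came from GENCODE M39 on GRCm39, in which all 43 members were found, and promoters from RefSeq (GRCm38.p6). RSEM's default options do not use strand.

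Values per mouse are given for the catalytic subunits, the 10 members with the lowest p, the extremes of each role and of level, and members near 0. Other named genes and the ratios were chosen after their values were seen. Alternatives were edgeR and DESeq2 tests, sample quality weights, other scalings and filters, a replicate block, other member lists, a threshold of 0.1 and each mouse left out. *Paaf1*, on the list of assembly factors, was not analysed here, and 1 listed gene is not reported here. Reads were not analysed here.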

Additional observations from a re-analysis of the deposited data

How the results depend on the processing

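No alternative to limma's settings brought a member past the threshold except DESeq2's Wald test, which called 2 members (*Psmd4* and *Psme2*, both named above), and the cause was not tested. The members at an unadjusted p under 0.05, 5 in all, numbered 2 without control mouse 1 and 3 without TDP-43iΔEC mouse 1. They numbered 7 without TDP-43iΔEC mouse 3 or with sample weights, 9 with scaling to EC markers and 11 with library size only. With these 2 scalings the median over all tested genes also moved up, to 0.23 and 0.18. Shares of all tested genes per setting are not given for these counts or the pathway counts that follow. Neither is read as a result about the genes. The pathway genes, 2 in all, numbered 0 without TDP-43iΔEC mouse 2 or with the block, 1 without control mouse 2, control mouse 3 or TDP-43iΔEC mouse 1, with no filter, with sample weights or in edgeR, 3 with library size only or at least 10 counts per library, and 4 without TDP-43iΔEC mouse 3 or control mouse 1. Same-numbered mice did not deviate together (correlations -0.0607, -0.111 and -0.0213), and with the replicate number as a block 0 members and 0 pathway genes passed, with a median log2 fold change of 0.20. That median was 0.40 with library size only and 0.45 with EC markers, and ran from 0.06 (without control mouse 1) to 0.21 with each mouse left out. Members higher without overlap were 8 with DESeq2's size factors. They numbered 6 with TMM factors (not among the planned settings, 7.39% of all tested genes) and 14 with library size only (10.6%). Without control mouse 2 and TDP-43iΔEC mouse 1 they numbered 17 (added after seeing the data, where 18.8% of all tested genes were). With each mouse left out they numbered 10 to 14 (14 without control mouse 2), where 11.5% to 13.8% of all tested genes were. Members lower without overlap numbered 1 to 4, with 4 without control mouse 1 (10.9% of all tested genes), 2 without TDP-43iΔEC mouse 2 (12.7%) and 2 without TDP-43iΔEC mouse 3 (12.1%). Of 36 genes followed through the settings, 15 changed sign in at least 1 setting, all with a limma adjusted p of 0.685 or more. With library size only, log2 fold changes became 0.05 for *Psma2*, 0.16 for *Psmb6*, 0.12 for *Psmd6*, 0.19 for *Psme1*, 0.07 for *Nfe2l1*, 0.05 for *Psmb8*, 0.07 for *Sem1* and 0.06 for *Ubb*. With EC markers they became 0.12 for *Psma2*, 0.03 for *Psmb5*, 0.22 for *Psmb6*, 0.05 for *Psmd5*, 0.17 for *Psmd6*, 0.23 for *Psme1*, 0.10 for *Nfe2l1*, 0.18 for *Psmb8*, 0.12 for *Sem1* and 0.11 for *Ubb*. *Psmb6* was at 0.01 with DESeq2 size factors, 0.00 with hemoglobin, mitochondrial and ribosomal RNA genes left out, 0.13 with sample weights and 0.25 without the pair of mice. *Psme1* was at 0.04 with size factors, 0.03 with DESeq2 and with those genes left out, 0.02 with at least 10 counts per library, and 0.00 with no filter and with the block. *Psmb8* was at 0.01 with DESeq2, 0.10 with the block and 0.19 with sample weights, and *Psmc3ip* at -0.37 with sample weights. With each mouse left out, log2 fold changes ran from -0.81 to 0.06 for *Psma8*, -0.36 to 0.00 for *Psmb5*, -0.22 to 0.17 for *Psmb6*, -0.07 to 0.21 for *Psmb7*, -2.03 to 3.74 for *Psmc3ip*, -0.22 to 0.33 for *Psmd2*, -0.14 to 0.02 for *Psmd6*, -0.14 to 0.13 for *Psme1*, -0.14 to 0.32 for *Adrm1*, -0.37 to 0.10 for *Nfe2l1*, -0.57 to 0.63 for *Psmb8* and -0.33 to 0.04 for *Sem1*. The other genes followed kept their sign. *Psmd1*, which was not among them, was at -0.01 in limma and 0.03 in DESeq2. With 3 mice per group, the precision is that of the intervals given above.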
